A study of Mus musculus with 10 samples.

Results

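The genes described here encode 10 receptor chains through which blood progenitors and mast cells take up growth signals: Kit, Csf2rb, Csf2rb2, Il3ra, Csf2ra, Il5ra, Il6ra, Il6st, Il1rl1 and Epor. They were chosen by mouse gene symbol, as the receptors for the 3 growth factors of the culture (IL3, IL6 and SCF) and their close relatives. They are 10 of 47311 genes measured, and all 10 passed the filter on low counts, which left 17810 genes to test. PolyA RNA came from mouse lineage-negative, Kit-positive bone marrow cells into which a vector had been put that was empty or carried ASXL2, either in full length or as mutant 1, 2 or 3. GFP-positive cells were sorted and grown in IMDM medium with serum, IL3, IL6 and SCF, which all groups shared. There were 2 empty vector libraries, 2 full-length libraries and 2 for each of mutants 1, 2 and 3, and the 6 mutant libraries were pooled into 1 class. The labels give no strain or age and do not name the vector. Nor do they state that replicate libraries stem from different cultures or animals. The p-values therefore rest on differences between libraries that may be technical.

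Receptors for blood growth factors fall into a few families. KIT is a receptor tyrosine kinase that binds stem cell factor (SCF), and mast cells depend on it throughout life. The receptors for IL3, GM-CSF and IL5 each pair a private alpha chain, which binds the cytokine, with a beta chain that carries the signal through JAK2 and STAT5. The mouse has a shared beta chain (Csf2rb) and a close copy that serves IL3 alone (Csf2rb2). IL6 binds its own chain (Il6ra), and the pair then engages gp130 (Il6st), which also serves IL11, IL27 and other cytokines and signals through JAK1 and STAT3. ST2 (Il1rl1) is the IL33 receptor of mast cells, and the erythropoietin receptor (Epor) is best known in red cell precursors.

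Asxl2, the over-expressed gene, lay at 107 and 111 CPM (counts scaled to the library total, with TMM factors) with the empty vector and between 790 and 1892 CPM in the 8 construct libraries. The totals lay between 52422686 and 79320702 estimated counts per library. Of the mutant libraries, 4 carry another mutant number in the deposited name than in the label. In 2 of these the batch differs as well: mutant 1 replicate 2 belongs to batch 1 by name and mutant 3 replicate 1 to batch 2 by name. Groups were taken from the labels and the batch from the deposited names, and single mutants were not compared. By this choice, mutant 1 has no library from batch 2, mutant 3 has none from batch 1, and only mutant 2 spans the batches. Among the mutant libraries, batch and labelled mutant therefore cannot be fully told apart. This limits the batch differences given below and the interaction of the mutants with batch. Kit, the gene of the labelled sort, was present in every library, and 10 of the 11 mast cell and basophil markers reached 1 TPM on average (a level scaled by transcript length and library). These markers summed to between 52223 and 65480 TPM, led by Cpa3 at 24091 TPM on average, Cma1 at 12897 and Tpsb2 at 9532, which are mast cell proteases. In bulk samples, fewer cells of a type and less RNA per cell cannot be told apart.

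Both transcripts of Kit that can be translated in full differ at 1 place in the coding frame, and the bases of that place are shown because they separate the long form from the short form of the receptor. Kit-201 holds 12 bases at the end of exon 9 (mm10 chr5:75639147-75639158, plus strand) that Kit-204 skips. The added residues lie just outside the membrane, and the longer frame has 979 codons against 975. Capitals mark the 12 bases, with 15 bases on each side.
Kit-201: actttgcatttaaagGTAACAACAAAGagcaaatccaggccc
Kit-204: actttgcatttaaagagcaaatccaggccc

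The beta chain genes, which lie side by side on chromosome 15, are shown because their likeness limits how well their counts can be told apart. Over 2628 aligned coding bases they were 95.2% identical, and 28.9% of the 31-base words of the Csf2rb transcript also occur in Csf2rb2. Capitals mark the 3 bases that differ among the first 90 coding bases.
Csf2rb: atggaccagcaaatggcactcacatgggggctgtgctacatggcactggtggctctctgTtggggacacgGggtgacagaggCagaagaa
Csf2rb2: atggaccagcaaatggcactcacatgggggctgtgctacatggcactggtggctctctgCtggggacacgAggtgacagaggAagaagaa

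The start regions of 3 genes are shown, those of Il6st and Epor because these genes differed between the classes, and the distal start of Il1rl1 because its main short transcript begins there. Each holds the 250 bases before the start site (RefSeq, GRCm38.p6), read in the direction of the gene. The Il6st window lies before the start of transcript Il6st-203, which held 25.6% of the gene's TPM. The main transcript, Il6st-201 (60.4%), starts further downstream, at position 112475008, and the bases before that start are not shown. Capitals mark AGATAA, the GATA factor motif, and CACCC, the motif of Krüppel-like factors, on either strand, where they may read TTATCT or GGGTG in the lines printed. Of the 32851 windows of this length in the table, AGATAA occurs in 9.99% and CACCC in 17087. The STAT factor motif, TTCNNNGAA, occurs in 7.02% of windows and in none of these. The Epor window holds 1 AGATAA and 2 CACCC matches, the distal Il1rl1 window 1 of each, and the Il6st window 2 overlapping CACCC matches. A match is a description of the letters and not a site.
Il6st, chr13:112463820-112464069, plus strand: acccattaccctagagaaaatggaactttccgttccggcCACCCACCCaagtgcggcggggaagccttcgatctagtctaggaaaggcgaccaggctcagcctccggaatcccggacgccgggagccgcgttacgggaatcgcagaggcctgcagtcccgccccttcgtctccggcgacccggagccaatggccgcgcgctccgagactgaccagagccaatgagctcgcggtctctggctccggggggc
Epor, chr9:21963577-21963826, minus strand: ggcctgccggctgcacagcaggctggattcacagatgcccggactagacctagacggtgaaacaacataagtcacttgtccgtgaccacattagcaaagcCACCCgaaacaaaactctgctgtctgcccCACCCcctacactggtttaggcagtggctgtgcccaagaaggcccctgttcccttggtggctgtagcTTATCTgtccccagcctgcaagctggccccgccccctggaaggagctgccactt
Il1rl1, distal start, chr1:40429320-40429569, plus strand: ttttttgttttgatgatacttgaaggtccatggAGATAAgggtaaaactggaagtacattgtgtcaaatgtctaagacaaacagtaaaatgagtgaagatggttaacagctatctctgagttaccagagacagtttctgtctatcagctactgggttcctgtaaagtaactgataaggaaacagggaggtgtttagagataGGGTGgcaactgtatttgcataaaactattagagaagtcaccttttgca

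The receptors spanned more than 4 orders of magnitude in TPM and fell into an abundant and a scarce set. Csf2rb2 was the most abundant, at 3006 ± 346 TPM over all 10 libraries (SD), with a range of 2417 to 3498. Il1rl1 followed at 1882 ± 181 TPM and Csf2rb at 1660 ± 184 TPM, and the ranges of these neighbours overlapped. Kit stood at 894 ± 118 TPM, between 729 and 1050, and overlapped neither Csf2rb above it nor Il3ra below it. The private alpha chains were far scarcer than the beta chains: Il3ra averaged 79.5 ± 11.0 TPM and Csf2ra 18.9 ± 4.37 TPM. The 4 that stayed under 10 TPM were Epor at 4.42 ± 1.58, Il6st at 2.20 ± 0.965, Il5ra at 2.18 ± 0.618 and Il6ra at 0.113 ± 0.138. The ranges of Epor, Il6st and Il5ra overlapped. Il6ra, the chain that binds IL6, had between 20 and 160 estimated counts in a library, against 158361 to 280417 for Kit. Together the 10 genes took between 0.620 and 0.878% of all TPM.

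**Figure D1:**
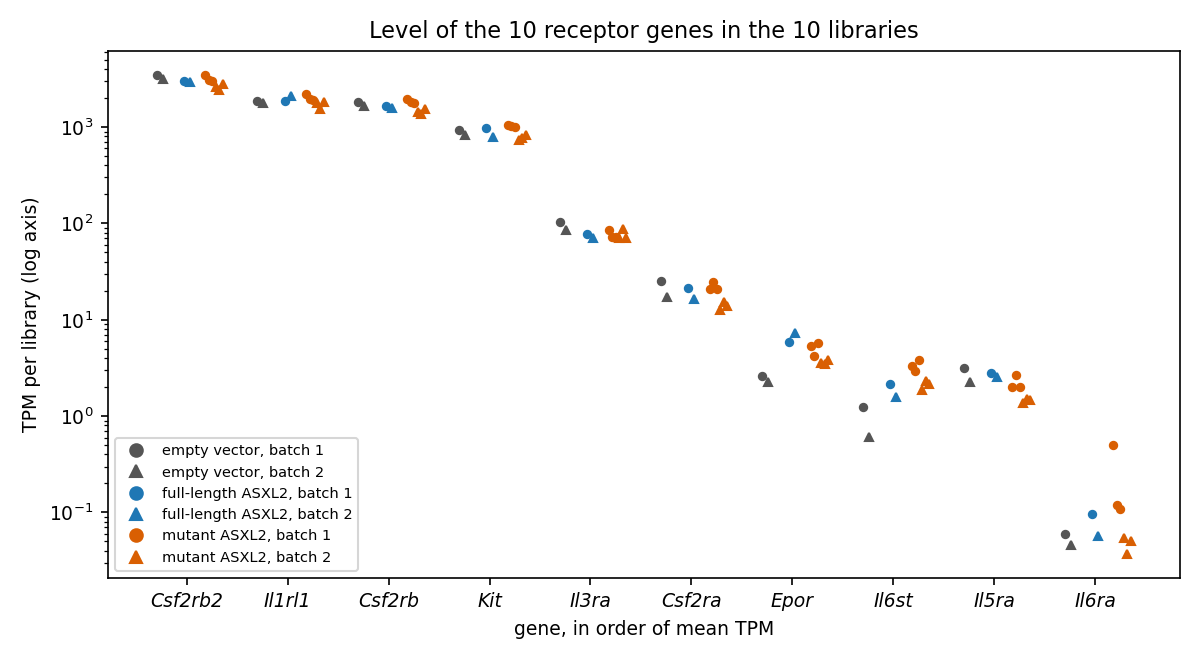
TPM of each receptor gene in each of the 10 libraries, on a log axis, with genes in order of their mean. Colours give the class and symbols the batch of the deposited name. Csf2rb2, Il1rl1, Csf2rb and Kit lie between 729 and 3498 TPM, and Il6ra lies under 0.5 TPM in every library.

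The first question of the design is what full-length ASXL2 does to expression. With full-length ASXL2, 2 of the 10 receptors rose, Epor 2.73-fold and Il6st 2.16-fold, and none fell. The other 8 did not pass the test. That is 2 of 10 against 5.07% of all genes called in this comparison (903 of 17810, of which 686 higher and 217 lower). Without regard to the test, 6 receptors were higher and 4 lower, and their median log2 difference was 0.03, against -0.02 over all genes. In the pooled mutants the same pair rose, Il6st 3.19-fold and Epor 1.85-fold, where 10.8% of all genes were called (1925, of which 1214 higher and 711 lower). Here 5 receptors were higher and 5 lower, with a median of 0.03 against -0.01 over all genes. Both comparisons use the same 2 empty vector libraries. Calls are from edgeR's quasi-likelihood test with the batch as a block and a Benjamini-Hochberg adjusted p under 0.05 over all genes.

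Il6st (ENSMUSG00000021756, mm10 chromosome 13, 112464070 to 112510086) encodes gp130, the signalling chain of the IL6 receptor. It stood at 4.82 and 2.77 CPM in the empty vector libraries of batches 1 and 2 and at 9.93 and 6.32 CPM in the full-length libraries. In the mutants it lay between 8.91 and 15.9 CPM with a median of 11.3. Every construct library was above both empty vector libraries, although counts were low, between 190 and 950 per library. Full-length ASXL2 gave a log2 fold change of 1.11 (SE 0.139, edgeR, adjusted p = 0.00145). It was 1.67 (SE 0.123) for the mutants (edgeR, adjusted p = 5.18e-05). Within batch 1 the log2 ratios to the empty vector were 1.04 for full-length ASXL2 and 1.55 for the mutants, and within batch 2 they were 1.19 and 1.81. The full-length call was lost in 5 of 23 alternatives. In edgeR the adjusted p was 0.282 without a block and 0.146 with a block by the batch of the labels, at log2 fold changes of 1.10 and 1.11. By limma with the block, the difference was 0.58 on log2(TPM + 1) (adjusted p = 0.106, and 0.190 without a filter) and 0.98 on log2(TPM + 0.1) (adjusted p = 0.0573).

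In each batch, the mutant libraries averaged above the full-length library for Il6st, by 0.51 and 0.62 on the log2 scale. The fitted difference was 0.56 (SE 0.111, 95% interval 0.32 to 0.81), which missed the threshold (edgeR, adjusted p = 0.0665). It passed in 4 of 23 alternatives, among them DESeq2 and edgeR without a filter, both with all 10 libraries. Without mutant 1 replicate 2 it passed at 0.61 (edgeR, adjusted p = 0.0357). It also passed without the 2 mutant libraries whose name and label give different batches, at 0.63 (edgeR, adjusted p = 0.0279).

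Il6st also varied with the batch: it was lower in batch 2 by 0.61 on the log2 scale (SE 0.0847, edgeR, adjusted p = 0.000181). The transcripts with over 10% of its TPM were Il6st-201 with 60.4% and Il6st-203 with 25.6%, and both carry the same frame of 917 codons. At these levels the share of Il6st-201 ranged from 28.2 to 74.6% between libraries, and the ranges of the classes overlapped. It was lower in batch 2 than in batch 1 with the empty vector (28.2 against 63.7%) and with full-length ASXL2 (43.2 against 70.3%), and on average in the mutants (54.0 against 67.6%).

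Epor (ENSMUSG00000006235, mm10 chromosome 9, 21958897 to 21963506, minus strand) encodes the erythropoietin receptor. It stood at 3.14 and 3.08 CPM with the empty vector, at 7.78 and 9.19 CPM in the full-length libraries, and between 5.20 and 7.33 CPM in the mutants with a median of 5.28. The 3 classes did not overlap: the empty vector was lowest, the mutants were between and full-length ASXL2 was highest. The log2 fold change against the empty vector was 1.45 (SE 0.182) for full-length ASXL2 (edgeR, adjusted p = 0.00145). For the mutants it was 0.89 (SE 0.156, edgeR, adjusted p = 0.00525). Without empty vector replicate 1, a fit that leaves 1 control library, the mutant difference was 0.84 and was no longer called. Within batches, the log2 ratios to the empty vector were 1.31 and 1.58 for full-length ASXL2 and 1.01 and 0.77 for the mutants.

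The mutants lay below full-length ASXL2 for Epor, the reverse of Il6st, by 0.56 on the log2 scale (SE 0.139). This difference missed the threshold over all genes (edgeR, adjusted p = 0.126, interval -0.87 to -0.25), and within batches it was -0.30 and -0.80. None of the 10 receptors passed in the comparison of mutants with full-length ASXL2, in which 0.399% of all genes did (71, of which 33 higher and 38 lower). In that comparison 5 receptors were higher and 5 lower, with a median of 0.01, as over all genes. At an unadjusted p under 0.05 there were 3 (Il5ra, Il6st and Epor), beside 2003 of all 17810 genes. DESeq2 called 2 of the 10, beside 499 of all genes.

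**Figure D2:**
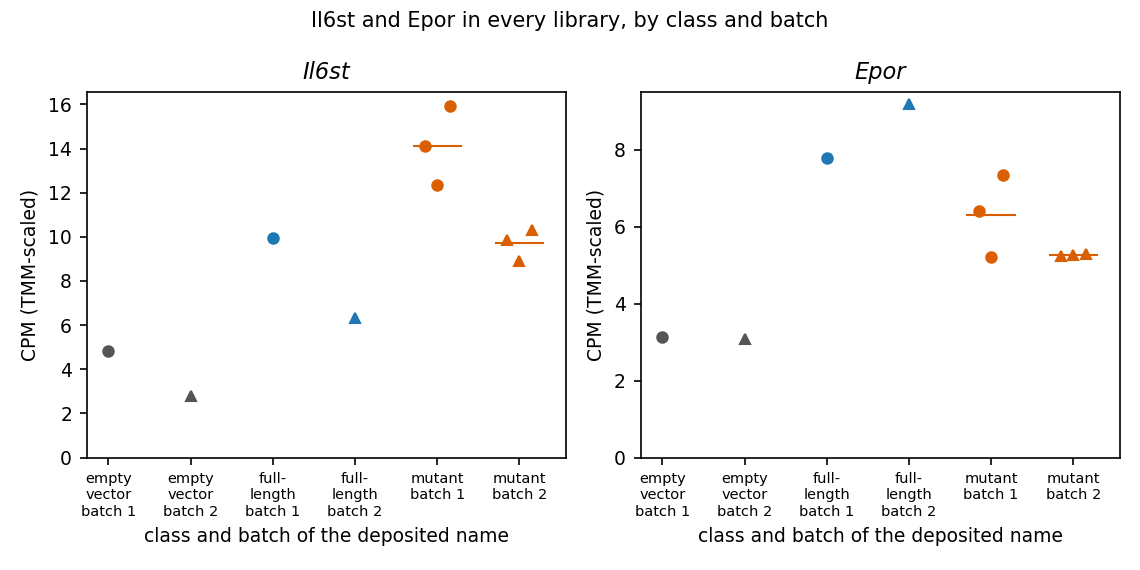
CPM of Il6st (left) and Epor (right) in each library, by class and by the batch of the deposited name, with the mean of the 3 mutant libraries of each batch as a line. Both genes are lowest with the empty vector, Il6st is highest in the mutants of each batch on average, and Epor is highest with full-length ASXL2.

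Erythroid markers are given beside Epor because its best known site is the red cell lineage. Of 20 markers, 13 averaged under 1 TPM, and the defining genes Slc4a1 and Alas2 averaged 0.000443 and 0.161 TPM. The list summed to between 401 and 417 TPM with the empty vector, 421 and 449 in the full-length libraries and 389 and 499 in the mutants. Gata1, a factor that mast cells share, made up the largest part at 184 TPM. Of 17 markers tested, 1 rose in each comparison with the empty vector and none fell, beside 5.07% and 10.8% of all genes called. This was Klf1, a red cell transcription factor, at 0.967 TPM on average. It rose by 0.98 with full-length ASXL2 (edgeR, adjusted p = 0.0365) and by 0.84 in the mutants (edgeR, adjusted p = 0.0236). Without the 2 mutant libraries whose name and label give different batches, neither Klf1 nor any other erythroid marker was called. The part of these markers in the Epor difference was not tested.

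Kit showed no difference between the classes that exceeded its spread. It stood at 2982 and 3194 CPM with the empty vector, at 3523 and 2781 CPM in the full-length libraries and between 3038 and 3494 CPM in the mutants with a median of 3362. The full-length libraries thus enclosed all the others. Full-length ASXL2 gave a log2 fold change of 0.02 (95% interval -0.18 to 0.22) and the mutants gave 0.09 (interval -0.07 to 0.26). With full-length ASXL2, the ratio to the empty vector was 0.24 in batch 1 and -0.20 in batch 2 on the log2 scale. Each batch holds 1 empty vector and 1 full-length library, so the spread in tests of interaction came from the pooled mutant libraries only. The interaction of full-length ASXL2 with batch was -0.44 for Kit (SE 0.131, edgeR, adjusted p = 0.724), in a test that called 0.0168% of all genes (3). The interaction of the mutants with batch called 0% of genes, with 1761 genes at an unadjusted p under 0.05 (DESeq2 called 216). No receptor was called in either interaction by edgeR or DESeq2, and at an unadjusted p under 0.05 edgeR had Kit for full-length ASXL2 and 0 receptors for the mutants.

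The short Kit form was the more abundant in every library. Kit-204 took 63.0 ± 1.09% of the TPM of the pair with the empty vector (SD, n = 2), 62.0 ± 0.541% in the full-length libraries (n = 2) and 62.8 ± 0.395% in the mutants (n = 6). All libraries lay between 61.7 and 63.7%, and the classes overlapped. The annotated starts of these transcripts also differ, so the 12 bases are not the only sequence that separates them.

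The beta chains and their alpha partners did not pass in any class comparison of the fit of all libraries. Csf2rb, the shared beta chain, ranged from 5641 to 6448 CPM over all libraries. Csf2rb2, the IL3 beta chain, stood at 11214 and 11611 CPM with the empty vector, at 10724 and 10134 CPM in the full-length libraries and between 9931 and 11186 CPM in the mutants with a median of 10277. Both empty vector libraries were the highest of the 10, at a fold of only 0.908 for the mutants. The log2 difference was -0.14 for the mutants (SE 0.0559, interval -0.26 to -0.02) and missed the threshold (edgeR, adjusted p = 0.143). DESeq2 called it at -0.15 (adjusted p = 0.0431). Csf2rb held 34.3 ± 0.101% of the TPM of both beta chain genes with the empty vector, 35.4 ± 0.526% in the full-length libraries and 36.1 ± 0.724% in the mutants. The shares at the empty vector, 34.2 and 34.4%, were the lowest of all, and counts shared between such close copies make this split uncertain.

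Il3ra, the IL3 alpha chain, stood at 91.3 and 85.3 CPM with the empty vector, at 75.5 and 66.3 CPM in the full-length libraries and between 65.1 and 99.3 CPM in the mutants with a median of 73.5. Of the construct libraries, 7 of 8 lay below both empty vector libraries, and mutant 3 replicate 1 lay above them. The log2 difference was -0.31 for full-length ASXL2 (SE 0.178, edgeR, adjusted p = 0.394) and -0.22 for the mutants (SE 0.143, edgeR, adjusted p = 0.387). Without mutant 3 replicate 1 the latter was -0.32 and passed (edgeR, adjusted p = 0.0301). That library is also 1 of the 2 whose name and label give different batches. Without both, Il3ra was lower in the mutants by 0.29 (edgeR, adjusted p = 0.0434) and Csf2ra by 0.28 (edgeR, adjusted p = 0.0172). The summed beta chain TPM was 54.2 ± 4.03 times that of Il3ra with the empty vector, 62.8 ± 2.59 times with full-length ASXL2 and 59.9 ± 9.40 times in the mutants.

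Csf2ra, the GM-CSF alpha chain, ranged from 19.1 to 30.8 CPM. Il5ra, the IL5 alpha chain typical of eosinophils, stood at 5.80 and 5.11 CPM with the empty vector, at 5.80 and 5.39 CPM in the full-length libraries and between 3.23 and 5.63 CPM in the mutants with a median of 3.91. Of the mutant libraries 5 of 6 lay below all others, and mutant 1 replicate 2 lay among them. The log2 difference between the mutants and the empty vector was -0.44 (SE 0.145, edgeR, adjusted p = 0.0770). It was -0.53 without mutant 1 replicate 2 and then passed (edgeR, adjusted p = 0.0189). It also passed at -0.57 without the 2 mutant libraries whose name and label give different batches (edgeR, adjusted p = 0.0167) and at -0.45 by DESeq2 (adjusted p = 0.0339). Against full-length ASXL2 it was -0.48 (SE 0.144, edgeR, adjusted p = 0.206). The larger part of Il5ra TPM came from Il5ra-203 (53.8%), whose annotated frame has 76 codons against 415 in Il5ra-202 (46.2%).

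Il6ra was near the limit of detection, at 0.377 and 0.321 CPM with the empty vector, 0.616 and 0.373 CPM in the full-length libraries and a mutant median of 0.559 CPM. Mutant 1 replicate 1 stood apart at 2.38 CPM, and the other mutants lay between 0.288 and 0.761 CPM. The log2 difference was 0.41 (SE 0.707) for full-length ASXL2 and 0.97 (SE 0.595) for the mutants, with intervals of -1.18 to 2.00 and -0.37 to 2.30. The same library held the eosinophil granule genes Prg2 at 9.56 TPM and Epx at 2.57 TPM, which lay at or under 0.235 and 0.00563 TPM in the other libraries. Its 6 eosinophil markers summed to 13.9 TPM, against 0.994 to 2.25 TPM elsewhere, with Ear1 and Ear2 at 0 in every library. Siglecf (0.114 TPM) and Ccr3 (1.66 TPM) of that list lay within the range of the other libraries. Mutant 1 replicate 1 was also highest for genes of other marker lists, such as S100a9 (1.21 TPM), Hbb-bs (4.65 TPM) and Hba-a2 (13.7 TPM). These genes are named after their values were seen. The part of these markers in its Il6ra level was not tested.

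Il1rl1, the IL33 receptor, ranged from 4766 to 5691 CPM. It stood at 4766 and 5142 CPM with the empty vector, at 5302 and 5691 CPM in the full-length libraries and between 5020 and 5612 CPM in the mutants with a median of 5284. The full-length and empty vector libraries did not overlap, but the log2 difference of 0.15 (SE 0.0737) did not pass (edgeR, adjusted p = 0.305). For the mutants it was 0.11 (SE 0.0605, edgeR, adjusted p = 0.312).

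The gene makes a membrane receptor and a short secreted form that binds IL33 without signalling. Il1rl1-201, with the membrane frame of 567 codons, held 62.8% of its TPM, and Il1rl1-205, with the short frame of 337 codons, held 32.4%. Transcripts of the short frame together took 36.9 ± 1.21% with the empty vector, 36.2 ± 0.283% in the full-length libraries and 36.5 ± 0.917% in the mutants, and the classes overlapped. Il1rl1-205 begins at the distal start at position 40429570 of chromosome 1. None of the annotated transcripts in the tables joins that first exon to the long frame, so such a molecule cannot be told apart from the 2 forms here.

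**Figure D3:**
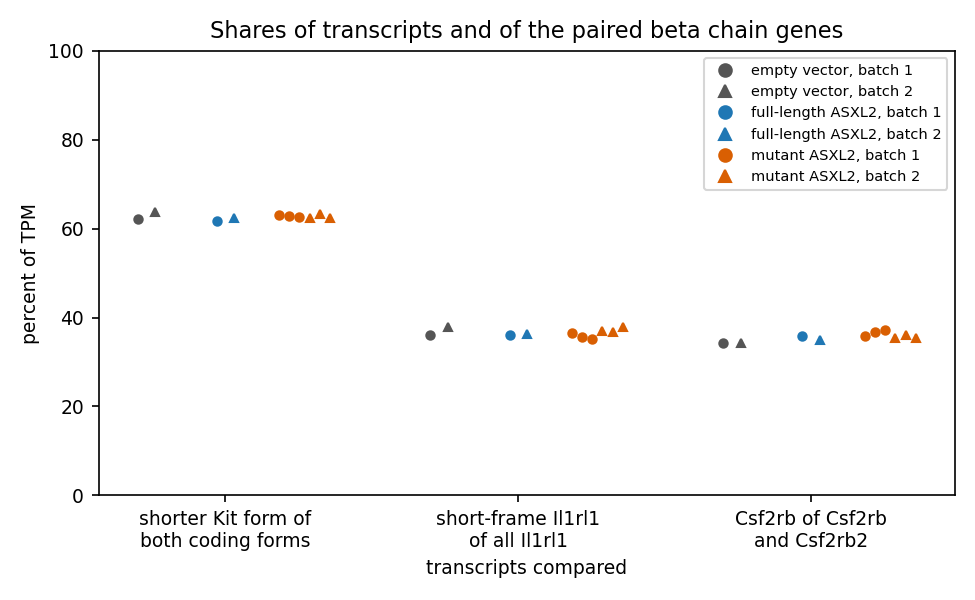
Percent of TPM in each library for the short Kit transcript (of the pair), for the Il1rl1 transcripts with the short frame (of the gene) and for Csf2rb (of both beta chain genes). Shares lie within 61.7 to 63.7%, 35.2 to 37.8% and 34.2 to 37.2%, and the empty vector overlaps the construct classes for Kit and Il1rl1 but not for Csf2rb.

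Counting only whether the CPM ranges overlapped, 5 receptors separated full-length ASXL2 from the empty vector (Csf2rb2, Il3ra, Il6st, Il1rl1 and Epor), where 29.5% of all genes did. For the mutants against the empty vector 3 did (Csf2rb2, Il6st and Epor), against 14.4% of all genes. For the mutants against full-length ASXL2 Epor alone did, against 5.69%.

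**Figure D4:**
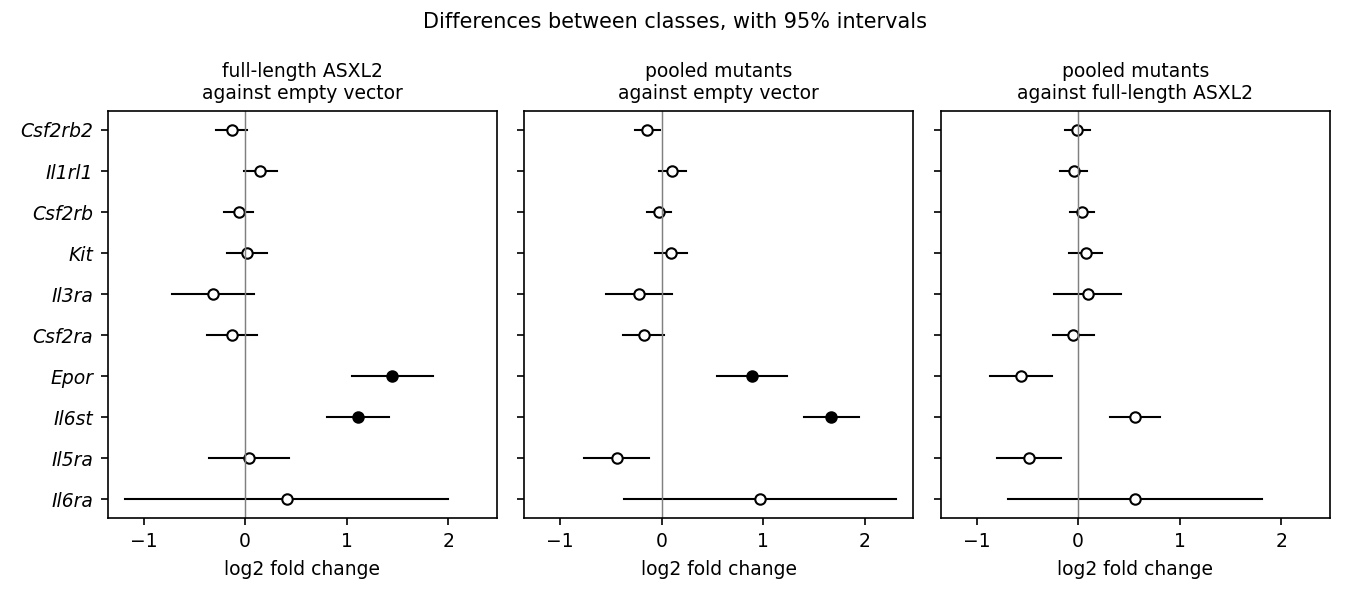
Log2 fold change of each receptor gene with its 95% interval from edgeR, in the 3 comparisons of classes, with filled points where the adjusted p is under 0.05. Epor and Il6st are the called genes, at 1.45 and 1.11 for full-length ASXL2 and 0.89 and 1.67 for the mutants, and Il6ra has the widest intervals.

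More genes were called between the batches than between classes, 52.4% (9338), and with them 4 of the 10 receptors, all lower in batch 2. These were Il6st, Csf2ra by -0.41 (SE 0.0715, edgeR, adjusted p = 0.000766), Il5ra by -0.31 (SE 0.115, edgeR, adjusted p = 0.0431) and Il6ra by -1.36 (SE 0.428, edgeR, adjusted p = 0.0239). Without regard to the test, 8 receptors were lower in batch 2 and 2 were higher. Of all genes called, 50.7% were higher in batch 2, but by limma on log2(TPM + 1) 19.0% of the genes called were. The Il6st and Csf2ra calls were absent in 1 of 21 alternatives each, the block by the batch of the labels. Il5ra was called in 7 of 21 and lost its call without any 1 of the 10 libraries. Il6ra was -0.79 without mutant 1 replicate 1, the library that stood apart for this gene (edgeR, adjusted p = 0.0156). It was called in 11 of 18 and lost its call without any 1 of the 3 mutant libraries of batch 2. Kit, Csf2rb and Csf2rb2 were called in 6 of 21, 4 of 21 and 2 of 20 alternatives, lower in batch 2 wherever called. By limma on log2(TPM + 1), 6 of the 9 receptors tested were called between batches. Of the 11 mast cell and basophil markers, 7 rose in batch 2 and 1 fell.

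The genes whose pattern was most like that of a called receptor, or of Kit, were ranked by Pearson's r over the 10 libraries after the mean of each batch was subtracted. These values describe 9644 genes in shared libraries and carry no test. Il6st was most like Fam102b (r = 0.992), Spats2 (r = 0.988) and Spire1 (r = 0.986). Epor was most like Uap1l1 (r = 0.988), Rgl3 (r = 0.984) and Cdc42bpg (r = 0.983). Kit had looser likenesses, with Rundc3b at 0.943, Nub1 at 0.923 and Plpp6 at 0.921. Il6st and Epor had an r of 0.653 with each other.

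Rgl3, a guanine nucleotide exchange factor of the Ral pathway, is also a neighbour of Epor on chromosome 9 (21968711 to 21989446, the same strand, 5204 bases apart). Its level was 3.28 ± 0.134 CPM with the empty vector, 7.52 ± 0.281 in the full-length libraries and 5.55 ± 0.817 in the mutants. Its log2 fold change was 1.20 (SE 0.153, edgeR, adjusted p = 0.00158) for full-length ASXL2 and 0.75 (SE 0.130, edgeR, adjusted p = 0.00480) for the mutants. The other 6 genes tested within 50000 bases of Epor (Rab3d, Tmem205, Ccdc159, Plppr2, Swsap1 and Prkcsh) were not called in either comparison. Swsap1, the nearest at 632 bases, changed by -0.16 and -0.20. Within 50000 bases of Il6st no other gene was tested. These neighbours were looked up after the values were seen.

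The ligands of the receptors were nearly silent in these cells, apart from Il6. Kitl, Il3, Csf2, Il5, Il33 and Epo averaged at most 0.0440 TPM, with Il3 and Epo at 0 in every library, and none of the 6 passed the filter. Il6 stood at 68.9 TPM. It fell with full-length ASXL2 by 0.51 on the log2 scale (SE 0.0688, edgeR, adjusted p = 0.00197) and in the mutants by 0.36 (SE 0.0550, edgeR, adjusted p = 0.00251). In CPM it was 69.3 ± 0.834 with the empty vector, 48.7 ± 6.49 in the full-length libraries and 54.1 ± 1.79 in the mutants.

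Of 26 other cytokine and growth factor receptors tested, 4 rose and 1 fell with full-length ASXL2, and 6 rose and none fell in the mutants. Over all genes, 5.07% and 10.8% were called. The median log2 difference of these receptors was 0.16 and 0.22, against -0.02 and -0.01 over all genes. The rises depended on the method. By limma on log2(TPM + 1), 0 of 22 tested rose in either comparison, and 1 fell in the mutants. That fit called 201 and 573 of 13033 genes. Igf1r, the IGF1 receptor, rose by 0.71 (SE 0.0793, edgeR, adjusted p = 0.000773) and by 0.69 (SE 0.0672, edgeR, adjusted p = 0.000214). Il10rb rose by 0.38 and 0.36 (edgeR, adjusted p = 0.0196 and 0.00625). Il11ra1, whose product binds IL11 and pairs with gp130, rose by 1.08 with full-length ASXL2 (edgeR, adjusted p = 0.0198) and stood at 0.56 in the mutants (adjusted p = 0.0764). Il21r rose by 1.22 with full-length ASXL2 (edgeR, adjusted p = 0.0139). The 1 that fell was Il2rg, the chain shared by the IL2 family, by 0.28 (edgeR, adjusted p = 0.0206). Among those that rose in the mutants was Il27ra, a further gp130 partner, by 0.25 (edgeR, adjusted p = 0.0379). Il2rg and Il27ra are named after their values were seen. The gp130 partners Lifr and Osmr averaged 0.0630 and 0.0203 TPM.

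The genes downstream of the receptors are counted beside the same shares of all genes called, 5.07% and 10.8%, and nothing particular to a list is read from these counts. Of 33 kinases, adaptors and STAT factors, none passed with full-length ASXL2 in edgeR's test (2 had an unadjusted p under 0.05, and DESeq2 called 1), and 3 rose and none fell in the mutants. These were Fyn, a kinase of the SRC family, by 0.50 (edgeR, adjusted p = 0.000226), Map2k1 by 0.48 (adjusted p = 0.0396) and the adaptor Gab2 by 0.21 (adjusted p = 0.0373). Fyn was also higher in the mutants than with full-length ASXL2, by 0.28 (SE 0.0488, edgeR, adjusted p = 0.0430). Of 16 negative regulators, 2 rose in each comparison with the empty vector and none fell. Cbl, a ubiquitin ligase that acts on KIT, rose by 0.75 and 0.45 (edgeR, adjusted p = 0.00298 and 0.0102). Ptpn1, a tyrosine phosphatase, rose by 0.26 and 0.16 (edgeR, adjusted p = 0.0229 and 0.0474). Of 14 STAT5 and STAT3 target genes, none passed with full-length ASXL2 in edgeR's test (1 had an unadjusted p under 0.05, and DESeq2 called 1), and in the mutants Bcl2, a survival gene, fell by 0.26 (edgeR, adjusted p = 0.0228). Without the batch block, Il6 was the 1 gene of these lists that was still called in either comparison with the empty vector.

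The other marker lists are short and are also counted beside 5.07% and 10.8% of all genes called. Of 11 mast cell and basophil markers none passed with full-length ASXL2 in edgeR's test (2 had an unadjusted p under 0.05, and DESeq2 called 1), and Hdc, the histamine-forming enzyme, rose in the mutants by 1.14 (edgeR, adjusted p = 0.0425). Of 7 monocyte, macrophage and neutrophil markers tested, Cd14 rose with full-length ASXL2 by 2.08 (edgeR, adjusted p = 0.0315) at 0.506 TPM on average, and none passed in the mutants. The whole list of 11 summed to between 9.20 and 21.6 TPM. Of 2 eosinophil markers tested and of 3 B, T and stromal markers tested, none passed. The latter list of 10 summed to between 158 and 213 TPM. Nearly all of this was Pecam1, at 158 to 212 TPM, and the other 9 members averaged under 1 TPM. The part of these markers in the receptor levels was not tested.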

How the data were processed

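PolyA RNA of 10 libraries was analysed from the deposited tables, which give an estimated count and a TPM value for each of 115088 transcripts, per the file headers. The submitters' processing notes name kallisto, DESeq2 and mm10, with roles, versions and other steps not given in the sources used here. Reads are shared among similar transcripts by kallisto, and no strand setting is stated.

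Transcripts were summed per gene through GENCODE M21, where 114200 matched and 888 did not, and the summed estimated counts were rounded to whole numbers. Matched transcripts held between 99.3 and 99.6% of the counts, and 15624 to 17240 genes reached 10 counts in a library. The test was that of edgeR 4.0.16, run in R 4.3.3 (robust quasi-likelihood test, TMM scaling, default filter of 10 counts for a smallest class of 2) in 1 fit of 3 classes, blocked by the batch that the deposited names give. P-values were adjusted by Benjamini-Hochberg over all genes tested. TPM values, per length, were used for levels and shares, and CPM for single genes across libraries. Alternatives were DESeq2 1.42.0, limma 3.58.1 on log2(TPM + 1) and log2(TPM + 0.1), other filters, scalings and blocks, fits of fewer libraries and each library left out in turn. The fit was also run on simulated counts, with the spread taken from these data and changes set only in well-counted genes. That run does not speak for scarce genes such as Il6ra. Start regions came from the RefSeq table of GRCm38.p6, and transcript sequences from GENCODE M21.

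The pairing of libraries by the batch in the deposited names was checked through their deviations from the class means. These correlated between 0.352 and 0.549 in the 14 pairs of the same batch. The members and gene lists were chosen with earlier results of these data known. Named were all 10 members, at most 4 genes of each list (smallest p among called genes, or the most abundant markers), the 3 genes most like each called member and Kit (averaging at least 5 CPM, on log2(CPM + 0.1)), and transcripts with at least 10% of a gene's TPM. Further genes of the lists were named after their values were seen. No unit differed from the planned one.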

Additional observations from a re-analysis of the deposited data

Results flagged for a closer look

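In the 6 mutant libraries, 3 of the 10 receptors had 1 library that lay apart from the rest by a Dixon gap above the critical value of 0.625. Chance gives such a gap in about 1 of 20 groups of like, normally spread libraries, and 10 groups were checked. These groups pool 3 mutants and both batches, so that rate need not hold here. Mutant 1 replicate 1 stood at 2.375 CPM for Il6ra, where the next library had 0.761 CPM (a gap of 0.773 of the range). The same library stood at 11190 CPM for Csf2rb2, where the next had 10300 CPM (a gap of 0.705). Mutant 3 replicate 1 stood at 99.34 CPM for Il3ra, where the next had 77.57 CPM (a gap of 0.636). Of these libraries, mutant 3 replicate 1 is also 1 of those whose batch differs between name and label.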

How the results depend on the processing

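Il6st was called in the mutants against the empty vector in all 23 alternatives, at log2 fold changes of 0.946 to 1.79. With full-length ASXL2 it was called in 18 of 23, and the 5 that lost the call were the fit without a block, the block by the labels and the 3 limma fits on TPM. Epor was called in 22 of 23 alternatives with full-length ASXL2 (1.12 to 1.66) and in 21 of 23 in the mutants (0.621 to 0.953).

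Without the replicate block, 1 receptor was called with full-length ASXL2 in place of 2, and the same number with the replicate block by the batch of the labels. The genes called without the replicate block were 134 for full-length ASXL2 in place of 903, 311 for the mutants in place of 1925 and 0 between both ASXL2 classes in place of 71 (720 at an unadjusted p under 0.05). With the replicate block by the labels these were 129, 335 and 1, and 0 receptors in place of 4 were called between batches. DESeq2 called 1517 genes for full-length ASXL2. It called 4 receptors and 2679 genes in the mutants against the empty vector, and 2 receptors and 499 genes between both ASXL2 classes. Without a filter, 183 genes and 1 receptor passed between these. Limma on log2(TPM + 1) called 1 receptor and 201 genes for full-length ASXL2, 573 for the mutants and 9 between them. With a pseudocount of 0.1 it called 1, 233, 591 and 6, and without a filter 0 receptors and 84, 261 and 15 genes, with 1 receptor in the mutants. Only the libraries compared gave 427 genes for full-length ASXL2. Only the libraries whose name and label match gave 446, 567 and 7 genes, and 2 receptors between batches. Without the 2 mutant libraries whose name and label give different batches, an alternative chosen after seeing the data, 5 receptors were called in the mutants against the empty vector (among 1646 genes), 1 in the mutants against full-length ASXL2 (among 136 genes) and 2 between batches. The cause of these changes was not tested, beyond the smaller number of libraries or genes.

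Leaving out each library in turn gave 285 to 1047 genes for full-length ASXL2 (lowest without full-length ASXL2 replicate 2), 494 to 2042 for the mutants (lowest without empty vector replicate 1) and 2 to 111 between them (lowest without full-length ASXL2 replicate 2). Receptors called ranged from 1 to 3 in the mutants, from 0 to 1 in the mutants against full-length ASXL2 and from 2 to 4 between batches, and stayed at 2 with full-length ASXL2. Of all values of the 10 receptors in the class comparisons under these alternatives, 635 kept their direction and side of the threshold, 12 gained a call, 8 lost one (those of Il6st and Epor above) and 23 turned direction, none of them called.

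Those that turned direction are given with the range over single libraries left out. With full-length ASXL2, Kit was -0.0238 on log2(TPM + 1) with and without a filter, -0.0239 on log2(TPM + 0.1) and ranged from -0.123 to 0.179. Csf2rb ranged from -0.149 to 0.0421. Il5ra was -0.0172 on log2(TPM + 1) with and without a filter, -0.0185 on log2(TPM + 0.1) and ranged from -0.0996 to 0.158. Il6ra ranged from -0.235 to 1.14. In the mutants, Kit ranged from -0.0440 to 0.251 and Csf2rb from -0.116 to 0.0753. Between the ASXL2 classes, Kit ranged from -0.0587 to 0.207, Il3ra from -0.0810 to 0.27 and Il1rl1 from -0.101 to 0.00546. There Csf2rb was -0.00688 on log2(TPM + 1) with and without a filter and -0.00689 on log2(TPM + 0.1). Csf2rb2 was 0.0369 in the libraries whose name and label match and ranged from -0.0366 to 0.0114. It was 0.00644 without the 2 mutant libraries whose name and label give different batches. Il6ra had no value under the limma filter of 1 TPM, and Csf2rb2 none when summed with Csf2rb. Depth limits Il6ra, which had 20 counts in its lowest library.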
